A study of Mus musculus with 12 samples.

Results

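Immunity-related GTPases (IRGs) were examined in TRAMP-C2 tumors through 7 genes that were chosen by name, of 49315 genes in the count files. They are the 3 regulatory members Irgm1, Irgm2 and Igtp and the 4 effector members Iigp1, Ifi47, Tgtp1 and Tgtp2, and each was found once in the files. TRAMP-C2 is a cell line from a prostate tumor of the TRAMP mouse, and here it was grown under the skin of the right flank of male C57BL/6J mice aged 6 to 8 weeks. At a volume of about 200.0 mm3, tumors were injected with ADU-S100 together with cyto-IL-15 (the combination), with ADU-S100, with cyto-IL-15 or with HBSS. HBSS is a balanced salt solution and was the vehicle in which ADU-S100 was diluted. ADU-S100 is a cyclic dinucleotide agonist of STING, the adaptor that links DNA in the cytosol to interferon production, and it was given as 3 doses of 50 µg. Cyto-IL-15 is an interleukin-15 that was made to attach to cell membranes, and it was diluted in PBS and given as 2 doses of 10 µg. Animals of the combination group received both schedules and those of the HBSS group 3 doses of 50 µl, and 3 tumors of each group were collected on day 6 for RNA sequencing. The model has a single cell line at a site outside the prostate. All 4 groups were injected into the tumor, but the cyto-IL-15 group differed from the HBSS group in the diluent and in the number of doses.

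IRGs are GTPases of the mouse that are induced by interferons, above all by interferon-γ, and they protect cells against parasites and bacteria that live in vacuoles. The effectors, with a GKS sequence in the nucleotide-binding loop, load onto the membrane of the vacuole and break it, whereas the regulators, with a GMS sequence, sit on the membranes of the cell and keep the effectors inactive there. Interferon-γ acts on its target genes through GAS elements and type I interferon mainly through ISRE elements, which a complex with STAT2 and IRF9 binds. The proteins are best known from macrophages and fibroblasts infected with Toxoplasma or Chlamydia.

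Total counts ranged from 48772204 to 103700199 per tumor (66085574 to 72939679 in the combination group, 69497371 to 103700199 in the ADU-S100 group, 48772204 to 79020457 in the cyto-IL-15 group and 61269250 to 89374663 in the HBSS group). Combination tumor 28LL and cyto-IL-15 tumor 13 stood apart, since they correlated, over 14145 genes that averaged 1 CPM or more, with the other tumors and with each other at Pearson's r of 0.79 to 0.92 on the log2 scale, against 0.94 to 0.99 among the other 10 tumors. The fold changes of the 7 genes are therefore also given without them. Pbsn, a defining gene of prostate, had 1 count in 1 HBSS tumor and none in the other tumors. Levels are given as TMM-normalized CPM, in which a library's counts are divided by its total times a TMM factor (0.888 in tumor 13 to 1.06 in tumor 9R). In such bulk samples fewer cells of a type and less RNA per cell cannot be told apart.

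In the coordinates of the files (GRCm38), 6 of the 7 genes lie on chromosome 11 and the seventh, Iigp1, elsewhere. Tgtp1, Tgtp2 and Ifi47 lie near Irgm1, at 48985327 to 48994172 (minus strand), 49057194 to 49064206 (minus strand) and 49076587 to 49096974 (plus strand), and Irgm1 is at 48861968 to 48871683 (minus strand). Igtp, at 58199556 to 58207591, lies within the span of Irgm2, at 58199618 to 58222782, apart from its first bases, and both are on the plus strand. Their exons share 162 bases, which is 8.01% of the exons of Igtp and 4.39% of those of Irgm2. Tgtp1 and Tgtp2 are near-identical copies: of all 100-base stretches in their exons, 70.3% of those of Tgtp1 are also found in Tgtp2 and 76.8% of those of Tgtp2 in Tgtp1. How the counting split such reads is not given in the sources used here, so the separate values of Tgtp1 and Tgtp2 are uncertain and their sum is reported beside them. Igtp shared 5.16% of its stretches with Irgm2, Ifi47 shared 0.561% with the overlapping olfactory receptor gene Olfr56, and Irgm1 and Iigp1 shared none with other genes. Ifi47 also overlaps the pseudogene Gm12188 on the other strand by 106 exon bases, and the strand setting of the counting is not given in the sources used here.

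Promoter sequences of RefSeq (build GRCm38.p6, 250 bases before to 50 bases after the start of the gene) were found for the 6 members on chromosome 11. They were searched on both strands for the GAS consensus TTCNNNGAA and for the ISRE core, which is GAAA, any 2 bases and GAAA again. The ISRE core was found in 5 of the 6 promoters, against 3.44% of 32851 promoter windows, and the GAS consensus in 4 of the 6, against 8.30%. Irgm2, Igtp, Tgtp1 and Tgtp2 held both, which 0.454% of all windows did, and in each of the 4 the GAS match came first and the ISRE match began 11 bases after the start of the GAS match. Irgm1 held a pair of overlapping ISRE matches that began 30 and 24 bases before the start and no GAS match, and Ifi47 held neither. The RefSeq start of Irgm2 lies 15359 bases inside the span of Irgm2 in the files, beyond the end of Igtp, that of Tgtp1 lies 1926 bases and that of Irgm1 263 bases inside its span, and the others are within 6 bases of it. The 120 bases before each RefSeq start are printed so that the 4 members with this arrangement can be read against each other, against Irgm1 and against Ifi47, and capitals mark the matches. They lie at chr11:48871421-48871540 for Irgm1 (minus strand), chr11:58214857-58214976 for Irgm2 (plus), chr11:58199436-58199555 for Igtp (plus), chr11:48992247-48992366 for Tgtp1 (minus), chr11:49064213-49064332 for Tgtp2 (minus) and chr11:49076467-49076586 for Ifi47 (plus).
Irgm1: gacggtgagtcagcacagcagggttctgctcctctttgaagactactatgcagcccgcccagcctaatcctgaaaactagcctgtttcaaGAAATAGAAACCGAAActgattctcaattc
Irgm2: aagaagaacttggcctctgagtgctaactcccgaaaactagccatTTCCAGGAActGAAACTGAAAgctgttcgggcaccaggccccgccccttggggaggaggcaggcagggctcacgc
Igtp: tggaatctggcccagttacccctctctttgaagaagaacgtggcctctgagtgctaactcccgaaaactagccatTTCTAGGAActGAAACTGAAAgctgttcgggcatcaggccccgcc
Tgtp1: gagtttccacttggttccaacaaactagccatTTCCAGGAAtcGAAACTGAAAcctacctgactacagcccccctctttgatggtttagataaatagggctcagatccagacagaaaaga
Tgtp2: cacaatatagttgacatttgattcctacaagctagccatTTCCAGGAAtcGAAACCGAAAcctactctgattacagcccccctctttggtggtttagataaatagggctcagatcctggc
Ifi47: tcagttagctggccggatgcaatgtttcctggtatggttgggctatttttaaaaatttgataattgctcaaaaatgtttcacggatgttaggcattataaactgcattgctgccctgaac

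The longest run common to the promoters of Irgm2, Igtp, Tgtp1 and Tgtp2 was ctagccatttc, whose last letters open the GAS match. It has 11 bases and was found in 8 of the 32851 windows, 0.0244%, and the other 4 genes were Gm12185, itself an IRG gene beside Tgtp1, 1700031L13Rik, Gm51887 and Zfand2b. Around the matches the printed sequences of Irgm2 and Igtp are nearly the same, and those of Tgtp1 and Tgtp2 are much alike. The 4 promoters are therefore not independent of each other when set beside the share of all windows. A match is a description of the letters in these windows, and no binding was measured.

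Among the regulators, Irgm1, which acts on lysosomes and in mitochondrial and autophagic quality control, had 113, 181 and 331 CPM in combination tumors 20L, 22 and 28LL and 191, 209 and 242 CPM in ADU-S100 tumors 17LL, 18R and 22LR. It had 72.3, 39.8 and 65.2 CPM in cyto-IL-15 tumors 9R, 13 and 20LL, against 63.0, 47.2 and 59.8 CPM in HBSS tumors 19, 22R and 22LL. The 6 tumors given ADU-S100 lay above the 6 not given it with no overlap, and within the combination group the highest tumor was far from the lowest, whereas the ADU-S100 tumors lay close together. Irgm2, a regulator of the Golgi membrane, had 66.6, 111 and 206 CPM in the combination tumors and 79.1, 156 and 164 CPM in the ADU-S100 tumors, in the same order of tumors. Its levels were 52.7, 28.3 and 45.2 CPM in the cyto-IL-15 tumors, against 49.9, 31.4 and 42.4 CPM in the HBSS tumors. Combination tumor 20L and ADU-S100 tumor 17LL were the low ones of their groups and came closest to the tumors without ADU-S100. Igtp, the regulator of the endoplasmic reticulum and of lipid droplets, had 80.6, 133 and 239 CPM in the combination tumors and 118, 169 and 167 CPM in the ADU-S100 tumors. It had 49.6, 22.0 and 42.2 CPM in the cyto-IL-15 tumors, against 40.0, 21.5 and 34.5 CPM in the HBSS tumors. The lowest tumor with ADU-S100, 20L, had 1.63 times the level of the highest tumor without it, 9R, the widest such gap of the 7 genes.

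Among the effectors, Iigp1, the best studied of them at the vacuole of Toxoplasma and the one member off chromosome 11 (chromosome 18, 60376029 to 60392627, plus strand), had 77.7, 164 and 333 CPM in the combination tumors and 134, 176 and 204 CPM in the ADU-S100 tumors. It had 68.9, 40.5 and 54.9 CPM in the cyto-IL-15 tumors, against 59.3, 27.2 and 56.2 CPM in the HBSS tumors. Its groups did not overlap either, but tumor 20L had 1.13 times the level of tumor 9R, the narrowest gap of the 7. Ifi47, an effector also known as Irgd, had 75.8, 109 and 182 CPM in the combination tumors and 101, 109.5 and 114 CPM in the ADU-S100 tumors. It had 65.1, 16.2 and 66.3 CPM in the cyto-IL-15 tumors, against 55.4, 41.2 and 50.2 CPM in the HBSS tumors. Tumor 13 was far below its group here, and the ADU-S100 tumors differed little from each other.

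Tgtp1 and Tgtp2 encode Irgb6, an effector that loads early onto the vacuole. Tgtp2 had 39.2, 70.8 and 103 CPM in the combination tumors and 52.8, 78.3 and 87.4 CPM in the ADU-S100 tumors. It had 25.6, 10.4 and 24.9 CPM in the cyto-IL-15 tumors, against 23.9, 14.1 and 24.0 CPM in the HBSS tumors. With ADU-S100 the lowest tumor was again 20L and without it the highest was again 9R. Tgtp1 was the least abundant member, with 7.74, 17.8 and 45.6 CPM in the combination tumors and 8.88, 15.8 and 20.5 CPM in the ADU-S100 tumors. It had 5.03, 2.70 and 4.72 CPM in the cyto-IL-15 tumors, against 4.10, 1.31 and 3.31 CPM in the HBSS tumors. The count of Tgtp1 divided by that of Tgtp2 was 0.197 to 0.443 in the combination group, 0.168 to 0.234 in the ADU-S100 group, 0.189 to 0.260 in the cyto-IL-15 group and 0.0933 to 0.171 in the HBSS group. The highest ratio was in tumor 28LL, and a ratio between near-identical copies depends on how shared reads were counted.

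**Figure D1:**
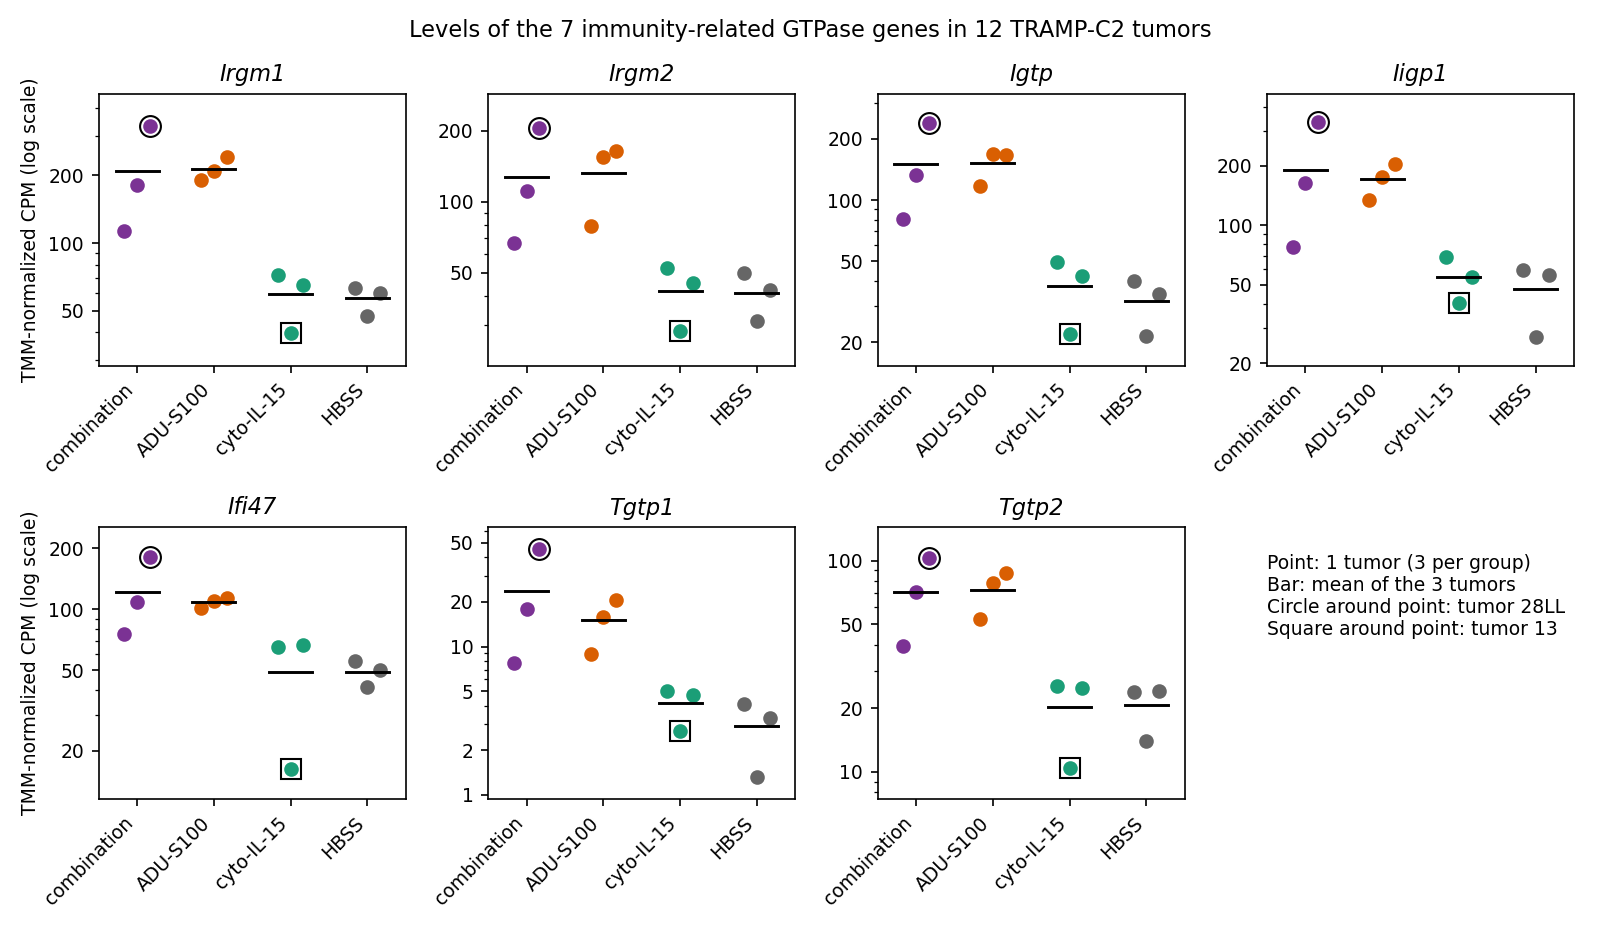
Level of each of the 7 genes in TMM-normalized CPM (log axis) by group, where points are single tumors and bars are the group means of 3 tumors. The 6 tumors given ADU-S100 sit above the 6 tumors not given it in each panel, and combination tumor 28LL is the highest point of all 7 panels.

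The same tumors stood at the ends across the family. Tumor 28LL was the highest of the 12 in all 7 genes, and the lowest of the 12 was tumor 13 in 4 genes and HBSS tumor 22R in 3. Within groups, tumor 20L was lowest of the combination group, 17LL of the ADU-S100 group, 13 of the cyto-IL-15 group and 22R of the HBSS group in all 7 genes. Relative to the HBSS mean, the median gene stood at 1.90-fold in tumor 20L, 3.42-fold in tumor 22 and 5.84-fold in tumor 28LL, and at 2.82-fold, 3.77-fold and 4.27-fold in ADU-S100 tumors 17LL, 18R and 22LR. In tumor 28LL the genes spread from 3.72-fold for Ifi47 to 15.7-fold for Tgtp1. The median gene stood at 1.33-fold in cyto-IL-15 tumor 9R, 1.21-fold in 20LL and 0.688-fold in 13. HBSS tumors themselves ranged from 0.680-fold to 1.21-fold. Over the 21 pairs of genes, Pearson's r of log2 levels across the 12 tumors was 0.86 (Ifi47 with Tgtp1) to 0.99 (Irgm1 with Igtp), with a median of 0.97. Over the 10 tumors without 13 and 28LL it was 0.94 to 0.99 (median 0.97). These coefficients are a description: the 12 tumors fall into 4 groups, and the levels of all genes in a tumor come from 1 library.

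ADU-S100 against HBSS asked what the STING agonist alone did. All 7 genes were higher in the ADU-S100 group and were called in edgeR (adjusted p under 0.05 over 18911 tested genes with a change of more than 1 on the log2 scale, up or down), against 2.75% of all genes tested that were called higher. Igtp averaged 151 ± 29.3 CPM in ADU-S100 tumors and 32.0 ± 9.51 CPM in HBSS tumors (SD, n = 3 tumors each), and rose by 2.25 on the log2 scale (standard error 0.25, edgeR adjusted p = 0.00405). Irgm1 averaged 214 ± 25.9 and 56.7 ± 8.37 CPM in these groups and rose by 1.92 on the log2 scale (standard error 0.15, edgeR adjusted p = 0.000695). Irgm2 averaged 133 ± 46.7 and 41.2 ± 9.34 CPM and rose by 1.69 (standard error 0.30). All 3 regulators thus rose beyond the spread of both groups. Among the effectors, Iigp1 averaged 171 ± 35.0 and 47.5 ± 17.7 CPM and rose by 1.85 (standard error 0.31). Tgtp2 averaged 72.8 ± 17.9 and 20.7 ± 5.72 CPM and rose by 1.82 (standard error 0.26). Tgtp1 averaged 15.1 ± 5.82 and 2.91 ± 1.44 CPM and rose by 2.38 (standard error 0.47, edgeR adjusted p = 0.0359, the largest of the 7). Tgtp1 thus had the largest fold change on the lowest level, with the uncertainty of its shared reads. Summed as 1 gene, the Tgtp pair rose by 1.90 (standard error 0.29, edgeR adjusted p = 0.0151). Ifi47 averaged 108 ± 6.52 and 48.9 ± 7.19 CPM and rose by 1.15 (standard error 0.13, edgeR adjusted p = 0.00263). Its 95% confidence interval, 0.85 to 1.44, lay below that of Irgm1, 1.59 to 2.26, although the difference between the genes was not tested.

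The median log2 fold change of the 7 genes was 1.85, beside 0.03 over all genes tested. In each of the 7 the lowest ADU-S100 tumor was above the highest HBSS tumor, an order that 16.4% of tested genes showed. DESeq2 also called all 7 (adjusted p 1.49e-24 to 0.000857, against 3.90% of its genes called higher), as did limma voom with quality weights (against 3.31%). The number of calls differed between the fits. EdgeR fitted on all 12 tumors called none of the 7 and no other gene, and edgeR with no filter on low counts called 4 (against 1.84% of genes). Leaving out HBSS tumor 22LL, ADU-S100 tumor 18R or ADU-S100 tumor 22LR left 4 called (against 1.39%, 1.90% and 2.36%). Over the fits that left out 1 tumor the log2 fold changes were 1.02 to 2.70. The cause of these differences was not tested.

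**Figure D2:**
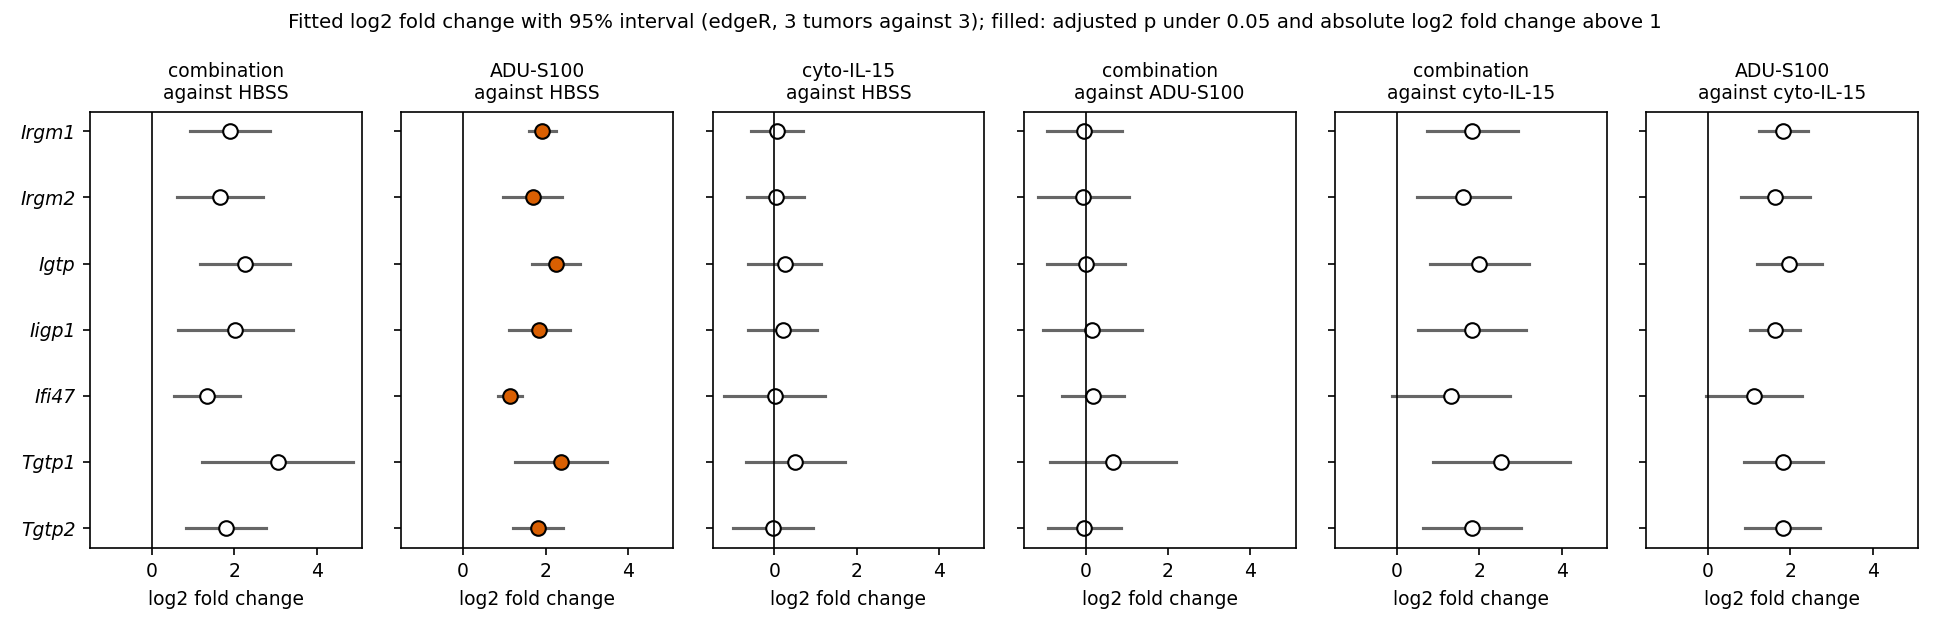
Fitted log2 fold change of each gene with its 95% confidence interval in the 6 pairwise comparisons (edgeR, 3 tumors against 3), with filled points for called genes. Filled points are seen in ADU-S100 against HBSS, where all 7 intervals lie above 0, and the intervals of cyto-IL-15 against HBSS and of combination against ADU-S100 span 0.

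The combination against HBSS gave fold changes of like size with more spread. The 7 genes had log2 fold changes of 1.33 (Ifi47) to 3.05 (Tgtp1), with a median of 1.90 beside 0.01 over all 18565 genes tested. Igtp averaged 151 ± 80.7 CPM in combination tumors and 32.0 ± 9.51 CPM in HBSS tumors, or 2.25 higher on the log2 scale (standard error 0.45). Irgm1 averaged 208 ± 111 and 56.7 ± 8.37 CPM (log2 fold change 1.90, standard error 0.40), and Irgm2 averaged 128 ± 71.0 and 41.2 ± 9.34 CPM (1.65, standard error 0.43). The combination tumors of each regulator spread more widely than the ADU-S100 tumors. Among the effectors, Iigp1 averaged 191 ± 129.7 and 47.5 ± 17.7 CPM (log2 fold change 2.03, standard error 0.58), and Ifi47 averaged 122 ± 54.3 and 48.9 ± 7.19 CPM (1.33, standard error 0.34). For the Tgtp pair, summed, the log2 fold change was 2.02 (standard error 0.46).

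None of the 7 passed edgeR's test in this comparison (adjusted p 0.185 to 0.198), and neither did any of the 18565 genes, so the share of all genes called was 0%. All 7 had an unadjusted p under 0.05, which 11.0% of tested genes had in this direction, and in all 7 the groups did not overlap, as in 15.0% of tested genes. DESeq2 called 7 (adjusted p 0.000136 to 0.0139, against 4.45% of its genes called higher) and voom with quality weights called 7 (against 3.47%). These values depended on tumor 28LL: without it the median log2 fold change was 1.38 in place of 1.90, that of Tgtp1 was 2.14 in place of 3.05 and that of Ifi47 0.92 in place of 1.33. Leaving it out also gave calls over all genes where there had been none, 0.968% of genes called higher, and of the 7 edgeR called 1, Irgm1. Without tumors 13 and 28LL, in a fit of the other 10 tumors, edgeR called Irgm1 and Igtp, against 1.21% of genes.

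With both groups that received ADU-S100 set against both that did not, and cyto-IL-15 as a covariate, 6 of the 7 genes were called higher, against 0.993% of 20132 genes. Irgm1 rose by 1.87 (standard error 0.24) and Igtp by 2.12 (standard error 0.29) on the log2 scale, both with an edgeR adjusted p of 0.00621. Tgtp1 rose by 2.44, Iigp1 by 1.83, Tgtp2 by 1.81 and Irgm2 by 1.64, with edgeR adjusted p of 0.0123 to 0.0205. The log2 fold change of Ifi47 was 1.23 (standard error 0.31), which did not pass (edgeR adjusted p = 0.0637). In all 7 genes the 6 tumors with ADU-S100 lay above the 6 without, an order found in 1.90% of genes. The gap between the lowest tumor with ADU-S100 and the highest without was 1.13-fold for Iigp1 and 1.63-fold for Igtp at its ends. DESeq2 called all 7 (against 3.81% of its genes) and voom with quality weights 6 (against 2.60%). Leaving out single tumors gave 3 to 7 calls: 3 (Irgm1, Igtp and Tgtp2) without HBSS tumor 22R or 22LL or ADU-S100 tumor 18R or 22LR, and 7 without cyto-IL-15 tumor 13 or combination tumor 20L. The share of all genes called higher moved as well, with 0.333%, 0.301%, 0.432% and 0.357% in the fits that gave 3 calls and 1.13% and 2.29% in those that gave 7. Without tumors 13 and 28LL the main effects of the 7 genes were 0.87 to 1.97.

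Cyto-IL-15 alone against HBSS gave values near 0. Irgm1 averaged 59.1 ± 17.1 CPM in cyto-IL-15 tumors and 56.7 ± 8.37 CPM in HBSS tumors, and Igtp averaged 37.9 ± 14.3 and 32.0 ± 9.51 CPM. The log2 fold changes ran from -0.03 (Tgtp2) to 0.51 (Tgtp1), with a median of 0.06 beside 0.04 over all genes, and their 95% confidence intervals reached from -1.22 to 1.71. None of the 7 genes was called by edgeR, DESeq2 or voom and none had an unadjusted p under 0.05, as 2.13% of genes had in the higher direction. EdgeR called 0% of 18594 genes, and DESeq2 and voom called 0.511% and 0.0108% higher. The groups overlapped in all 7, whereas 4.88% of tested genes were higher without overlap. Tumor 13 was the lowest of its group throughout, and without it the median was 0.39.

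Combination against ADU-S100 asked what cyto-IL-15 added. Log2 fold changes were -0.05 (Irgm2) to 0.67 (Tgtp1), with a median of 0.00 and standard errors of 0.32 (Ifi47) to 0.64 (Tgtp1). The 95% confidence interval was -0.94 to 0.88 for Irgm1, -0.94 to 0.95 for Igtp and -1.02 to 1.36 for Iigp1, and it was widest for Tgtp1. Irgm1 averaged 208 ± 111 CPM with the combination and 214 ± 25.9 CPM with ADU-S100, and Igtp 151 ± 80.7 and 151 ± 29.3 CPM. The spread of the combination group enclosed that of the ADU-S100 group in all 7 genes, with tumor 20L below and tumor 28LL above. None was called by edgeR, DESeq2 or voom and none had an unadjusted p under 0.05, beside 2.43% of genes in the higher direction and 0% of 18689 called. No gene of the 7 was higher without overlap, as 4.68% of genes were. Without tumor 28LL the median was -0.50. The interaction asks whether the combination departs from the sum of both agents on the log2 scale. It was -0.25 (Igtp) to 0.17 (Ifi47), with intervals from -1.75 to 2.03. None of the 7 was called by edgeR, DESeq2 or voom. None had an unadjusted p under 0.05, as 461 of 20132 genes had in either direction and 0.993% had in the higher direction. The median interaction was -0.04 with all 12 tumors, -0.61 without tumor 28LL and -0.83 without tumors 13 and 28LL. The main effect of cyto-IL-15 was -0.03 (Tgtp2) to 0.59 (Tgtp1), and none of the 7 was called by edgeR, DESeq2 (against 0.332% of genes higher) or voom or had an unadjusted p under 0.05, as 5.00% of genes had in the higher direction.

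Against cyto-IL-15, both groups with ADU-S100 were higher without overlap in all 7 genes, as were 6.14% of tested genes for the combination and 9.38% for ADU-S100. Combination against cyto-IL-15 gave log2 fold changes of 1.33 (Ifi47) to 2.54 (Tgtp1), and ADU-S100 against cyto-IL-15 gave 1.11 (Ifi47) to 1.97 (Igtp). In each of the 2 comparisons 6 genes, the exception being Ifi47, had an unadjusted p under 0.05 in edgeR, beside 3.13% and 3.84% of genes. None of the 7 passed after adjustment (edgeR adjusted p = 0.785 for the combination and 0.0999 to 0.615 for ADU-S100, with 0% and 0.0855% of all genes called). DESeq2 called 2 of the 7 (Igtp and Tgtp1, against 0.508% of genes) for the combination and 6, all but Ifi47, for ADU-S100 (against 1.11%), and voom called 0 and 5 (against 0.748%). Without tumors 13 and 28LL, edgeR called 2 in ADU-S100 against cyto-IL-15, against 0.721% of genes. Without tumor 13, edgeR called 4 of the 7 genes in ADU-S100 against cyto-IL-15, and the share of all genes called higher was 0.727% in place of 0.0855%. Without tumors 13 and 28LL the log2 fold changes were 0.48 to 1.38 in combination against cyto-IL-15 and 0.71 to 1.71 in ADU-S100 against cyto-IL-15. The 6 comparisons share tumors with each other, so that a high or low tumor moves several of them.

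Per kilobase of exon, the scale on which levels can be compared between genes, Igtp had the highest mean in the combination group (74.6 ± 39.9 CPM per kb) and in the ADU-S100 group (74.9 ± 14.5 CPM per kb). In the cyto-IL-15 and HBSS groups Ifi47 had the highest mean, with 19.9 ± 11.5 and 19.8 ± 2.91 CPM per kb. Igtp came next, with 18.8 ± 7.06 and 15.8 ± 4.70. The spreads of these neighbours overlapped, but both genes were measured in the same tumors. Ifi47 was above Igtp in each HBSS tumor, with 23.5 to 28.8% of the summed level per kb against 18.4 to 20.8%. In the cyto-IL-15 group Ifi47 was below Igtp in tumor 13 and above it in the other tumors. The difference between the genes was not tested. Tgtp1 had the lowest mean in each group, 7.40 ± 6.13, 4.70 ± 1.82, 1.30 ± 0.395 and 0.907 ± 0.448 CPM per kb in the combination, ADU-S100, cyto-IL-15 and HBSS groups. The make-up of the family differed between the groups in the shares of some genes. Igtp held 25.7 to 26.8% of the summed level per kb in combination tumors and 26.2 to 28.5% in ADU-S100 tumors, but 21.2 to 22.3% in cyto-IL-15 tumors and 18.4 to 20.8% in HBSS tumors. Ifi47 held 16.0 to 20.6% in combination tumors and 14.5 to 18.8% in ADU-S100 tumors, against 13.3 to 27.2% in cyto-IL-15 tumors, where 13.3% was tumor 13, and 23.5 to 28.8% in HBSS tumors. The shares of Irgm1, Iigp1 and Tgtp2 overlapped between all 4 groups, and the share of Irgm2 in ADU-S100 tumors (9.88 to 14.3%) overlapped with that in each other group. The 3 regulators together had 1.01 to 1.09 times the level per kb of the 4 effectors in combination tumors, 1.08 to 1.22 times in ADU-S100 tumors, 0.816 to 1.06 times in cyto-IL-15 tumors and 0.817 to 0.890 times in HBSS tumors. These ratios were chosen after the values were seen and are given as a description. In all, the 7 genes took 0.0467 to 0.144% of counts in combination tumors, 0.0702 to 0.101% in ADU-S100 tumors, 0.0142 to 0.0361% in cyto-IL-15 tumors and 0.0181 to 0.0297% in HBSS tumors.

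**Figure D3:**
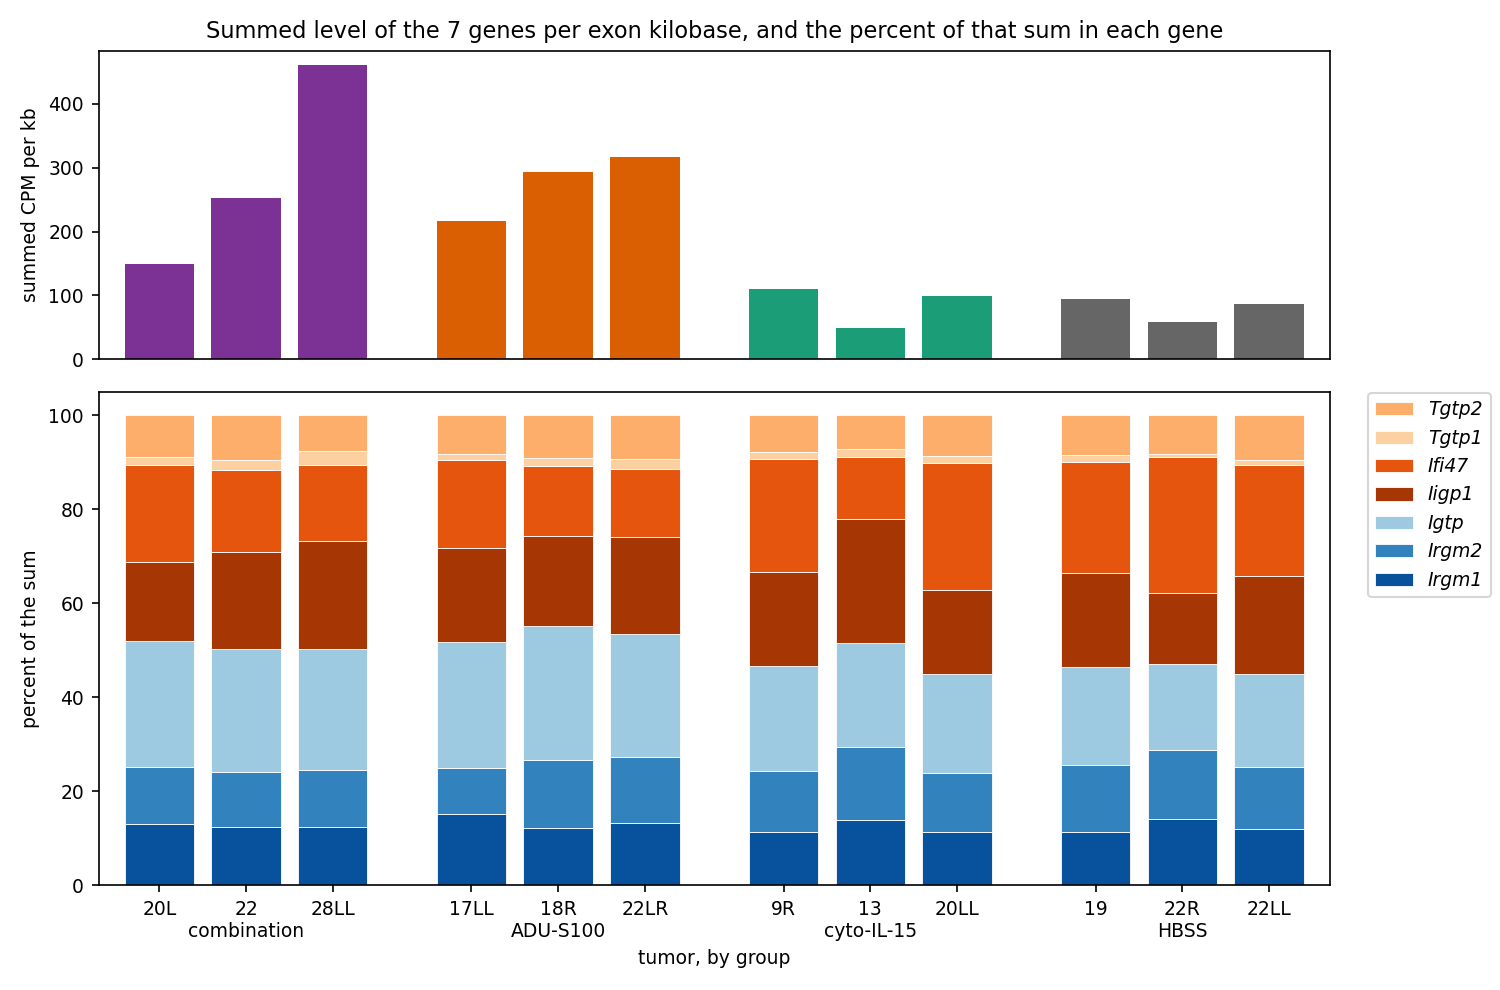
Summed level of the 7 genes in CPM per kb of exon in each tumor (upper bars) and the percent of that sum in each gene (lower stacked bars), with tumors grouped from combination on the left to HBSS on the right. The sum is highest in tumor 28LL (460.2 CPM per kb), and the share of Igtp is larger in the 6 tumors given ADU-S100 than in the other 6.

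The family holds further genes, and 11 others of a list of IRG genes were in the files. In ADU-S100 against HBSS, 9 of them were tested and 5 were called higher (median log2 fold change 1.51), against 2.75% of all genes tested. Gm4841 rose by 3.35 (standard error 0.32, edgeR adjusted p = 0.00160). It had 6.25, 34.6 and 121 CPM in the combination tumors, 19.1, 17.6 and 18.5 CPM in the ADU-S100 tumors and 6.42, 1.66 and 2.63 CPM in the cyto-IL-15 tumors, against 2.72, 1.05 and 1.71 CPM in the HBSS tumors. Unlike the 7 members, its combination and cyto-IL-15 groups overlapped, since tumor 20L and tumor 9R had nearly the same level. Gm12185, which lies beside Tgtp1 and shares 223 exon bases with it, rose by 2.31 (standard error 0.35). F830016B08Rik rose by 1.99 (standard error 0.24) and Gm4951 by 1.51 (standard error 0.28). Gm12250, which RefSeq lists with the synonym Irgb10, an effector at chlamydial and bacterial membranes, rose by 1.68 (standard error 0.33). The annotation calls Gm12250 a processed pseudogene. Gm5431 had a log2 fold change of 0.98 and was not called (edgeR adjusted p = 0.0513). 9930111J21Rik1 and 9930111J21Rik2 had -0.07 and 0.10, and Irgq, a distant member whose GTP-binding site has decayed, had -0.40. Gm12187 and Irgc1, an IRG gene of the testis, stayed at 0 to 0.0220 and 0.0402 to 0.140 CPM and were not tested.

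In combination against HBSS none of these 9 genes passed edgeR's test, and 5 had an unadjusted p under 0.05, as 3374 of 18565 tested genes had in either direction. Gm4841 had the largest log2 fold change, 4.91 (standard error 1.12), which was 3.49 (standard error 0.85) without tumor 28LL, where 4 of the 9 had an unadjusted p under 0.05. The share of all genes with such a p in that fit is not given. In cyto-IL-15 against HBSS and in combination against ADU-S100 none was called and none had an unadjusted p under 0.05. Over all 12 tumors the ADU-S100 main effect was called in 4 (Gm4841, Gm12185, Gm12250 and Gm4951), against 0.993% of all genes called higher. Of the 6 other IRG genes with a promoter sequence, the ISRE core was found in 3 and the GAS consensus in 2, and Gm12250 and Gm12185 held both. In Gm12185 the matches began 86 and 75 bases before the start, with the same spacing as in Tgtp1.

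Guanylate-binding proteins (GBPs) are larger interferon-induced GTPases that join IRGs at vacuoles. Of 11 measured, 10 were called higher in ADU-S100 against HBSS (median log2 fold change 1.52), against 2.75% of all genes tested, and the exception was Gbp2b at -0.44. Gbp10 rose by 3.62 (standard error 0.40), Gbp6 by 2.25 (0.23), Gbp3 by 2.14 (0.16) and Gbp4 by 2.09 (0.20). In combination against HBSS none was called by edgeR and 10 had an unadjusted p under 0.05, as 11.0% of tested genes had in the higher direction. The ADU-S100 main effect was called in 8, against 0.993% of all genes called higher. Several GBPs are near-identical copies whose separate values are uncertain.

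**Figure D4:**
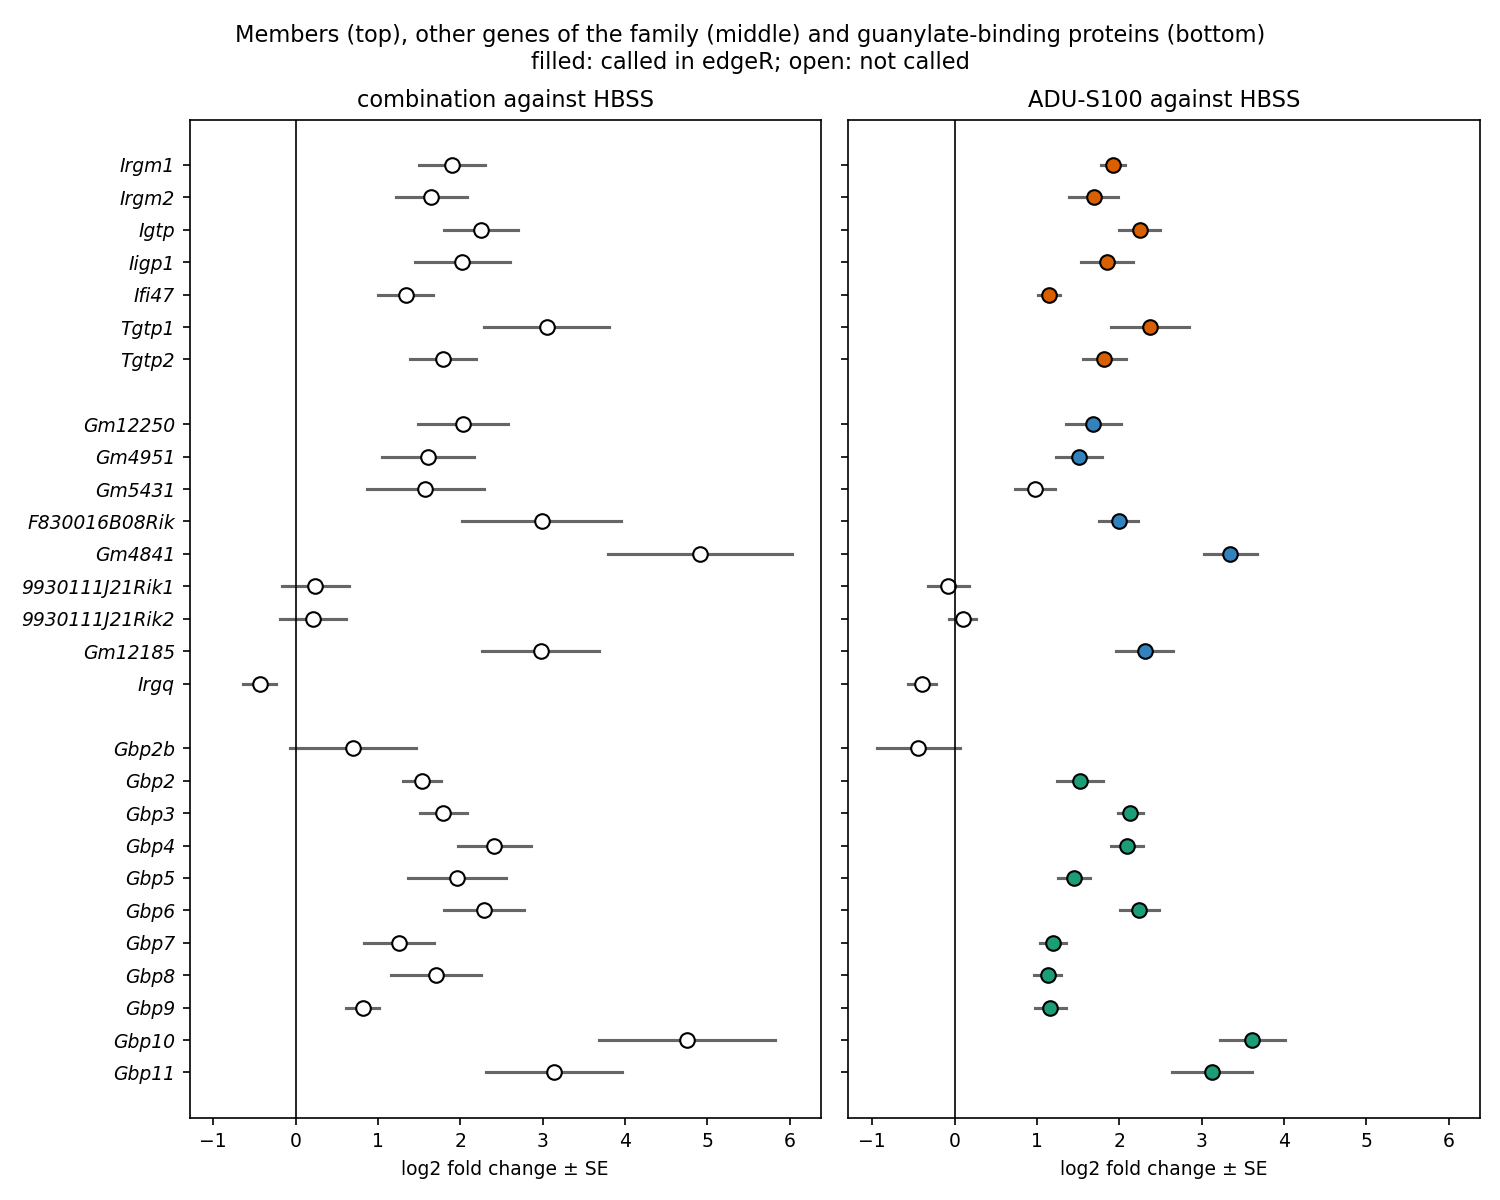
Log2 fold change with its standard error for the 7 members, the other IRG genes and the GBPs in ADU-S100 against HBSS and in the combination against HBSS, on 1 scale, with filled points for genes called in edgeR. In ADU-S100 against HBSS all 7 members, 5 other IRG genes and 10 GBPs are filled, and in the combination against HBSS no point is filled.

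Among genes of interferon-γ signaling, Ifng, the cytokine itself, had 1.11, 3.33 and 10.4 CPM in the combination tumors, 1.94, 2.18 and 2.04 CPM in the ADU-S100 tumors and 1.08, 0.464 and 1.52 CPM in the cyto-IL-15 tumors, against 0.472, 0.281 and 0.459 CPM in the HBSS tumors. Cyto-IL-15 tumor 20LL thus lay above combination tumor 20L, and tumor 9R just below it, unlike in the 7 IRG genes, where no tumor without ADU-S100 reached a tumor with it. Ifng rose by 2.34 with ADU-S100 (standard error 0.30, edgeR adjusted p = 0.00414). Irf1, an interferon-induced transcription factor, had a log2 fold change of 0.55 (edgeR adjusted p = 0.0341) under the fold threshold of 1, and the receptor chains Ifngr1 and Ifngr2 had -0.18 and -0.05.

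Of 8 tested genes of type I interferon signaling, 3 were called higher in ADU-S100 against HBSS, where 2.75% of all genes tested were called higher. Irf7, which amplifies interferon-α transcription, rose by 2.89 (standard error 0.37), and Stat2 and Irf9, which act at the ISRE, by 1.55 (0.14) and 1.32 (0.12). Irf7 averaged 277 ± 38.2 CPM in ADU-S100 tumors and 37.5 ± 16.3 CPM in HBSS tumors. Of 18 type I interferon-stimulated genes 16 were called higher (median 2.17), and of 14 interferon-γ-inducible genes 9 (median 1.41). In that second list 3 genes, H2-Aa, H2-Ab1 and Cd74 of antigen presentation by MHC class II, named after their values were seen, had log2 fold changes of -2.30, -2.06 and -2.25 and an unadjusted p under 0.05 and were not called (edgeR adjusted p 0.0590 to 0.110). The summed level of the 14 was 1663 to 3746 CPM in combination tumors, 1561 to 2658 CPM in ADU-S100 tumors and 746 to 6295 CPM in cyto-IL-15 tumors, against 2152 to 4617 CPM in HBSS tumors. Cd74 alone had 205 to 578 CPM in ADU-S100 tumors and 976 to 2256 CPM in HBSS tumors, so it weighs heavily in that sum. The autophagy conjugation genes, which place IRGs and GBPs at the right membrane, gave no calls among 11 in edgeR, and 1, Atg3, had an unadjusted p under 0.05 (log2 fold change 0.35, standard error 0.12), with a median of 0.06 beside 0.03 over all genes. Of 6 genes of ubiquitin and related conjugation at vacuoles, 2 were called higher, the ISG15-conjugating enzyme Ube2l6 by 1.45 (standard error 0.12) and the ligase Herc6 by 1.05 (standard error 0.15).

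**Figure D5:**
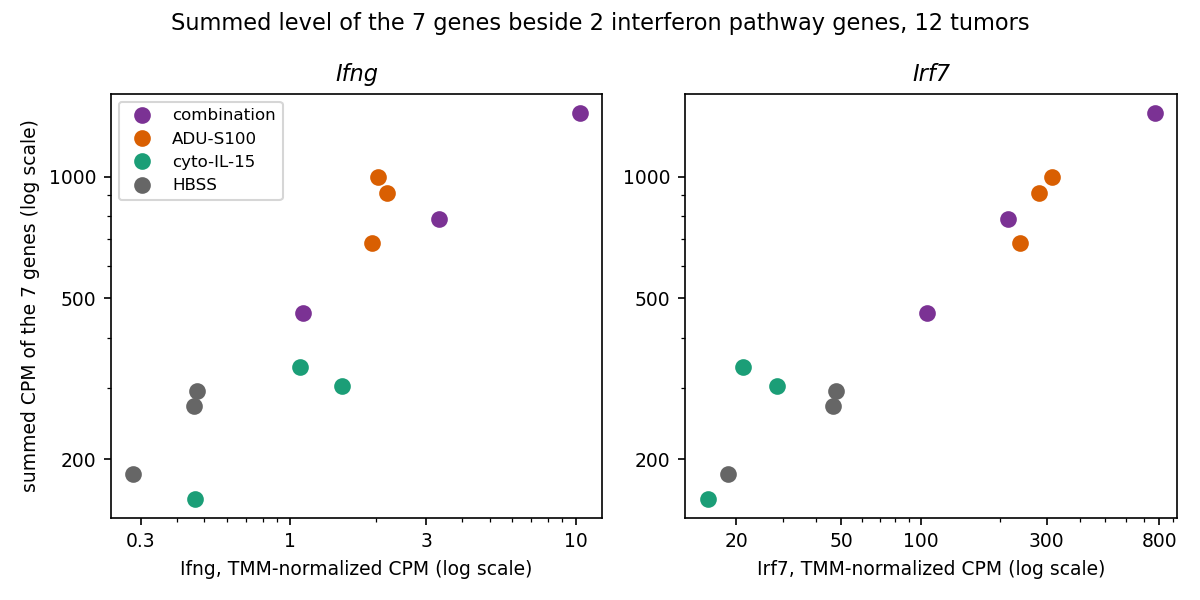
Summed level of the 7 genes in CPM (log axis) against the level of an interferon pathway gene in CPM (log axis) in each of the 12 tumors, 1 panel per gene, colored by group. Tumor 13 has the lowest sum, 160.0 CPM, and tumor 28LL the highest, 1439 CPM. On the Ifng axis cyto-IL-15 tumor 20LL (1.52 CPM) lies to the right of combination tumor 20L (1.11 CPM) at a lower sum.

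The genes whose pattern was most like that of the 7 were ranked over 14138 other genes by Pearson's r, across the 12 tumors, between their log2 level and the mean z-score of the 7. Among the 10 highest were Gbp6 (0.99), Gm12250 (0.99), Gm4951 (0.99), Zbp1 (0.98), Gbp4 (0.98), Gm12185 (0.98), Ifi206 (0.98), Ly6c2 (0.98) and Gbp5 (0.98). Over the 10 tumors without 13 and 28LL the r of these genes was 0.97 to 0.99. Within the 6 tumors given ADU-S100 these genes had r of 0.94 to 1.00 and within the 6 not given it 0.83 to 0.99. The tumors form separate groups, and each point shares its library with all genes ranked, so the coefficients are a description. Ifng stood at position 197 (0.90), Irf1 at position 32 (0.96) and Irf7 at position 24 (0.96).

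Several marker lists of other cell types differed between the groups in their summed levels. Unless stated otherwise, calls of single markers are for ADU-S100 against HBSS, where 2.75% of all genes tested were called higher. Monocytes that enter inflamed tissue carry Ly6c2 and Ccr2. The summed level of 4 monocyte genes was 275 to 1643 CPM in combination tumors, 269 to 575 CPM in ADU-S100 tumors and 82.8 to 284 CPM in cyto-IL-15 tumors, against 106 to 207 CPM in HBSS tumors. Of these, Chil3, Plac8 and Ly6c2 were called higher in ADU-S100 against HBSS (log2 fold changes 4.06, 2.87 and 3.31), and Ccr2 was not (-0.32). Of 4 natural killer (NK) cell genes, 3 were called higher, and the exception was Klra4 (log2 fold change -0.14). The sum of all 4 was 47.4 to 306 CPM in combination tumors, 40.7 to 49.4 CPM in ADU-S100 tumors and 53.0 to 83.3 CPM in cyto-IL-15 tumors, against 23.0 to 35.1 CPM in HBSS tumors. Klra4 alone had 15.8, 17.5 and 27.6 CPM in HBSS tumors 19, 22R and 22LL. It made up most of the sums there, so they understate how the 3 called genes differed. The highest sum with cyto-IL-15 was that of tumor 13, where Klra4 alone had 73.6 CPM. Ncr1, the receptor NKp46 of NK cells, had 10.2, 2.64 and 9.66 CPM in cyto-IL-15 tumors 9R, 13 and 20LL, against 1.67 to 2.47 CPM in HBSS tumors, so tumor 13 stood close to the HBSS tumors. Without tumor 28LL the combination sums were 47.4 and 93.6 CPM for NK cell genes and 275 and 533 CPM for monocyte genes. Neutrophil genes summed to 26.7 to 246 CPM in combination tumors and 20.0 to 45.3 CPM in ADU-S100 tumors, against 13.2 to 24.4 CPM in cyto-IL-15 tumors and 16.8 to 21.3 CPM in HBSS tumors, and 2 of 4 were called higher. Of the combination tumors only 28LL was above 27.0 CPM. The sum of 5 macrophage genes was 1315 to 2147 CPM in combination tumors, 1095 to 1557 CPM in ADU-S100 tumors and 828 to 2339 CPM in cyto-IL-15 tumors, against 1584 to 2057 CPM in HBSS tumors. In ADU-S100 against HBSS, Mrc1 was called lower (log2 fold change -1.53). Csf1r and Adgre1 had log2 fold changes of -0.96 and -0.62, and Cd68 went the other way with 0.64, and these were not called. T cell genes summed to 40.4 to 118 CPM in combination tumors, 39.8 to 61.8 CPM in ADU-S100 tumors and 16.4 to 101 CPM in cyto-IL-15 tumors, against 24.4 to 43.1 CPM in HBSS tumors, with none of 5 called. B cell genes summed to 1.26 to 1.90 CPM in combination tumors, 1.28 to 3.16 CPM in ADU-S100 tumors and 0.945 to 8.96 CPM in cyto-IL-15 tumors, against 3.97 to 6.26 CPM in HBSS tumors. Both groups with ADU-S100 thus lay below HBSS without overlap, and in ADU-S100 against HBSS all 3 genes had negative log2 fold changes with an unadjusted p under 0.05 and none was called. Fibroblast genes summed to 8321 to 10601 CPM in combination tumors, 12460 to 15749 CPM in ADU-S100 tumors and 9215 to 15004 CPM in cyto-IL-15 tumors, against 14227 to 18322 CPM in HBSS tumors, so that the combination lay below HBSS without overlap, and none of 4 was called in any comparison. Endothelial genes summed to 301 to 626 CPM in combination tumors, 383 to 433 CPM in ADU-S100 tumors and 136 to 285 CPM in cyto-IL-15 tumors, against 286 to 696 CPM in HBSS tumors.

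Skeletal muscle genes, of the tissue beside the tumor, summed to 30.4, 489.9 and 2548 CPM in combination tumors 20L, 22 and 28LL and to 1002, 324 and 94.6 CPM in ADU-S100 tumors 17LL, 18R and 22LR. They summed to 434, 2.32 and 148 CPM in cyto-IL-15 tumors 9R, 13 and 20LL, against 1.57 to 1.85 CPM in HBSS tumors. In the ADU-S100 group the order of the tumors by muscle was the reverse of their order by the summed IRG level, which was 685, 913 and 999 CPM, and in the combination group the orders were the same, with IRG sums of 461, 785 and 1439 CPM. Ptprc, the common leukocyte marker, had 166 to 774 CPM in combination tumors, 126 to 207 CPM in ADU-S100 tumors and 68.4 to 249.7 CPM in cyto-IL-15 tumors, against 123 to 144 CPM in HBSS tumors, and was not called in ADU-S100 against HBSS (log2 fold change 0.39). Tumor 28LL had the highest monocyte, NK cell, neutrophil and muscle sums and the highest Ptprc level of the 12. The part of these cell types in the levels of the 7 genes was not tested.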

How the data were processed

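RNA sequencing of 12 TRAMP-C2 tumors, 3 in each of 4 groups named in the labels, was analyzed from 1 file per tumor of whole-number read counts for 49315 Ensembl genes, deposited by the authors as raw counts in the layout of featureCounts. The submitters' processing notes name, with no role or order, the builds GRCm38 and mm10, the trimmer Trimmomatic 0.36, the aligner STAR 2.5.2b, Subread 1.5.2 with its counter featureCounts, bcl2fastq 2.20 and DESeq2. Strand setting, treatment of reads with several matches and annotation release are not given in the sources used here. Symbols came from GENCODE M21 (48970 identifiers matched), promoter sequences from RefSeq.

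Pairwise fits used the 6 tumors compared, and those of the main effects and interaction all 12, with edgeR 4.0.16 in R 4.3.3 (TMM, filterByExpr with a minimum count of 10 and minimum total of 15, robust quasi-likelihood F test, Benjamini-Hochberg adjustment over all genes tested). Called genes had an adjusted p under 0.05 and changed by more than 1 on the log2 scale, the thresholds of the study's methods. The standard error is the log2 fold change divided by the square root of F. For logarithms of levels 0.5 CPM was added. The biological coefficient of variation was 0.242 for ADU-S100 against HBSS, 0.387 for the combination against HBSS and 0.400 to 0.522 for the other pairs, which bounds the precision. Alternatives were DESeq2 1.42.0 (on the same tumors and on all 12), edgeR on all 12 tumors, RLE size factors, no filter, limma 3.58.1 voom with quality weights, leaving out tumors 13 and 28LL, and leaving out each tumor in turn. The edgeR steps were run on simulated counts for ADU-S100 against HBSS and for the interaction. They recovered 100% and 88% of 200 changed genes, and 5.21% and 4.86% of the calls were false. The simulated counts had less spread than the data and no tumors that stood apart, so these rates need not hold here.

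The 7 members and the gene lists were chosen with earlier results of these data known. The text names all 7 members, other IRG genes that averaged 0.5 CPM or more, from each further list up to 4 genes with the smallest p in ADU-S100 against HBSS, a defining marker near 0, genes among the 10 most like the members, and genes that overlap a member. Ccr2, Ifngr1, Ifngr2, Gbp2b, Irf1, H2-Aa, H2-Ab1, Cd74 and the IRG genes under 0.5 CPM were named for their role or to complete a count after their values were seen. The labels name each tumor separately, and p-values measure the spread between these tumors. The names share the number 22 between 4 tumors of 3 groups and the number 20 between 2 tumors of 2 groups, and what the numbers mark is not given in the sources used here. Some items that these rules would name are not reported here.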

Additional observations from a re-analysis of the deposited data

How the results depend on the processing

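Directions were stable in the results with a called or large fold change, and the number of calls was not: no log2 fold change above 1 changed sign under any alternative run. For the combination against HBSS, edgeR called 0 of the 7 genes. DESeq2 called 7 on the same tumors (against 4.45% of its genes called higher) and 6 with all 12. Voom with quality weights called 7 (against 3.47%), edgeR without tumors 13 and 28LL 2 (against 1.21%), and leaving out 1 tumor gave 0 to 1. For ADU-S100 against HBSS, edgeR called 7 (against 2.75% of genes called higher). The edgeR fit on all 12 tumors called 0 and that with no filter on low counts 4 (against 1.84%), and leaving out 1 tumor gave 4 to 6. For the combination against cyto-IL-15 (0 in edgeR), DESeq2 called 2 on the same tumors (against 0.508% of genes) and 6 with all 12. For ADU-S100 against cyto-IL-15 (0 in edgeR), DESeq2 called 6 (against 1.11% of genes) and, with all 12 tumors, 4. No filter gave 3, voom 5 (against 0.748%), the 10 tumors 2 (against 0.721%), and leaving out 1 tumor 0 to 4. The share of all genes called is not given for the DESeq2 fits with all 12 tumors or for this fit with no filter. Their counts can therefore not be read as particular to the 7 genes. For the main effect of ADU-S100 (6 in edgeR), leaving out 1 tumor gave 3 to 7. The causes of these differences were not tested. The counts for cyto-IL-15 against HBSS, the combination against ADU-S100, the main effect of cyto-IL-15 and the interaction were 0 under each alternative, where the median log2 fold change of the 7 genes ran from -0.12 to 0.39, -0.51 to 0.30, -0.11 to 0.24 and -0.83 to 0.31. With CPM from library totals in place of TMM, all group means of the 7 genes moved by less than their SD. No paired analysis was possible because the groups of a comparison share at most 1 number in the names of their tumors (20 or 22). The deviations from the group means of the 6 pairs of tumors that share a number across groups correlated at r of -0.19 to 0.15 over 14145 genes, and those of the 48 other pairs at -0.39 to 0.39. With 3 tumors per group, the 95% interval for the combination against ADU-S100 reached from 0.75 (Ifi47) to 1.54 (Tgtp1) on either side of the log2 fold change, and differences within these intervals could not be told from 0.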
